A study of Homo sapiens with 5 samples.

Results

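The genes described here copy DNA in S phase of the cell cycle and mend the replication fork. Their 41 names were given as a list, and all 41 were found among the 10592 genes of the table, 40 under the listed name and ORC4 under its older symbol ORC4L through its accession. Where a gene had several transcript rows, the one with the highest mean level was used. The list was put together with earlier results of these data known. The cells were MDA-MB-231, a long-established human cell line from a triple-negative breast cancer, grown in medium with serum. The series asked how MYC, a transcription factor, responds when SET or CIP2A, cellular inhibitors of the phosphatase PP2A, are blocked. Each of 5 groups had 1 library. The siNT library came from cells with a control siRNA for 48 hours, siSET from cells with an siRNA against SET for 48 hours, and siCIP2A from cells with an siRNA against CIP2A, whose own treatment label names no time. The PBS library came from vehicle-treated cells at 12 hours, and the OP449 library from cells with 1 µM of the SET antagonist OP449 for 12 hours. The labels do not describe the siRNA sequences or whether the cells given PBS or OP449 were also transfected.

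Before a cell divides, the origin recognition complex with CDC6 and CDT1 loads the MCM helicase onto DNA. Kinases and GINS then fire the loaded origins, and polymerases alpha, delta and epsilon copy the strands with nucleotides made by ribonucleotide reductase and thymidylate synthase. Many of these genes are transcribed at the entry into S phase through E2F transcription factors, which bind sites near the transcription start. Breast cancer lines in growth keep these genes active, and their RNA is commonly read as a sign of how many cells are in cycle.

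Depth set the precision. Reads recovered over all genes came to 3640564 in siSET, the shallowest library, and to 4761675 to 5601056 in the others. Since each group had 1 library, conditions could not be tested against each other, and no difference below has a replicate check. Values are scaled counts, the authors' read counts per transcript on a common scale. Differences are log2 ratios of scaled counts plus 1, with a 95% exact Clopper-Pearson interval from the reads in brackets that covers counting error only. All 41 genes passed a floor of 50 scaled counts on the mean over the 5 libraries, as did 6093 genes in all, which serve as the background. The part of the genome in the table used here left SET, CIP2A and MYC out, so silencing was not checked. Markers of the cell line were read as a check of the label. Of 5 mesenchymal markers, VIM stood at 15670 to 20866 scaled counts, CD44 at 13820 to 20560, AXL at 15393 to 18128 and ZEB1 at 761 to 908, and CDH2 only at 5.15 to 20.1. Of luminal and HER2 markers, PGR was at 0 in all 5 libraries, where a count of 0 allows up to 3.31 to 5.13, and FOXA1 reached at most 1.29. Others of that list were expressed: KRT19 at 4275 to 5998, KRT18 at 2032 to 2965, ERBB2 at 1049 to 1179, GATA3 at 133 to 250, EPCAM at 139 to 282 and CDH1 at 12.9 to 56.7. Of basal keratins, KRT5 and KRT14 were at 0 and KRT17 reached at most 3.56. Of immune and stromal markers, PTPRC reached at most 2.37, PECAM1 9.02, COL1A1 162 and CD3E reached at most 1.19, while CD68 stood at 1989 to 2401.

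The E2F sites are shown first, because they are a feature that the list did not use, though only part of the genes have one. RefSeq promoter windows on GRCh38.p14, from 250 bases before to 50 after a start, existed for 37 of the 41 genes, in 55 windows. E2F8, FANCI, POLD3 and RPA2 had no entry. One of the motifs TTTCCCGC, TTTCGCGC, TTTGCCGC or TTTGGCGC, on either strand, was present in 19 of the 55 windows (34.5%), against 3.31% of all 35116 windows and 5.47% of the windows of genes past the floor. Counted by gene, 18 of 37 held a match, against 7.39% of the genes past the floor. Related lists, described further below, also had more matching windows than the 5.47%. Their shares were 17.4% for further replication genes, 12.9% for further fork repair genes, 15% for E2F, RB and G1/S regulators and 12.8% for mitosis genes. Below are the sites of 8 genes, chosen after their values were seen because their levels differed in a comparison or they stand for a step of replication, 5′ to 3′ on the strand of the gene, with the matching letters in capitals.
MCM6: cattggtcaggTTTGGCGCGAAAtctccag
CDT1: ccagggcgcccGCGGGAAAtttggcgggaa
GINS2: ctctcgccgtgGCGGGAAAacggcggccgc
POLE: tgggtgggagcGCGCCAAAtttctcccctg
LIG1: acttcacccctTTTCCCGCcctcctcccat
TYMS: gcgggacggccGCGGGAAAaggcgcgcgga
CLSPN: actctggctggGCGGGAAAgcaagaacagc
DTL: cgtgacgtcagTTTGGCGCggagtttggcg

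The MCM6 window lies at chr2:135876515-135876544 on the minus strand, and its match begins 90 bases before the start site and joins a second, overlapping match on the other strand. That of CDT1 lies at chr16:88803743-88803772, plus strand. That of GINS2 lies at chr16:85688967-85688996 on the minus strand, and that of LIG1 at chr19:48170440-48170469, also minus. The CLSPN window, at chr1:35769965-35769994 on the minus strand, and the DTL window, at chr1:212035729-212035758 on the plus strand, span the start site. POLE has its window at chr12:132687342-132687371, minus strand, and TYMS at chr18:657603-657632, plus strand. The CCAAT box, searched on both strands, was present in 25 of the 55 windows (45.5%), against 34.6% of all windows. These matches are letters, not measured binding. For siNT against PBS, the log2 ratios ran from -0.45 to 0.06 with a median of -0.15 over the 18 genes with an E2F match, and from -0.44 to 0.15 with a median of -0.22 over the 19 without. In the other comparisons the median was lower with a match than without, at -0.01 and 0.11 in siSET, -0.04 and 0.05 in siCIP2A, and 0.04 and 0.07 in OP449. The ranges of genes with and without a match overlapped in all 4 comparisons.

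Levels differed widely among the genes. Per kilobase of transcript, using GENCODE lengths matched for 39 of the 41, 4 of the 5 nucleotide-supply genes were the most abundant of the 39. RPA1, at a mean of 2696 scaled counts, and RFC5, at 563, had no length. The ranking depends on dividing by length: undivided, DNMT1 had the highest mean, at 3427, above RRM1 at 3208. Whether reads from oligo-dT cover long transcripts evenly was not checked. TYMS, thymidylate synthase, stood at a mean of 1829 scaled counts per kilobase, TK1, thymidine kinase, at 1376, and the ribonucleotide reductase subunits RRM1 and RRM2 at 1043 and 895. The other nucleotide-supply gene, DUT, which breaks down dUTP, stood at 401, below FEN1 at 782 and DNMT1 at 658 among others. The lowest were BRCA2, a gene of recombination repair, at 33.6, the helicase gene BLM at 57.2 and the origin complex subunit ORC4 at 77. Across the 5 libraries the levels were steady. The highest library exceeded the lowest by a median of 1.33-fold over the 41 genes, and by the same median over all genes past the floor. The smallest span was 1.11-fold, for the mismatch repair gene MSH6, and the largest 1.99-fold, for CLSPN, which encodes the checkpoint mediator claspin. TYMS, FANCI and MSH6 overlap genes on the other strand (ENOSF1 and C18orf56, POLG, and FBXO11), and no source used here says whether counting used strand, so reads of each pair may be mixed.

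The siRNA libraries were mostly below the 2 libraries from 12 hours. Shares were taken of the scaled counts summed over the genes of the table, with 1 transcript per gene. The 41 genes together took up 0.794% in PBS and 0.829% in OP449, against 0.705% in siNT, 0.72% in siSET and 0.678% in siCIP2A. The table covers part of the genome, so these are not shares of a whole library. PBS was the highest library for 15 genes (36.6%, against 14% of all genes past the floor) and OP449 for 20 (48.8%, against 25.3%). The lowest library was siCIP2A for 15 genes (36.6%, against 19.8%), siNT for 13 (31.7%, against 20%) and siSET for 10 (24.4%, against 23.6%). For 23 of the 41 genes all 3 siRNA libraries lay below both PBS and OP449, where 13.8% of all genes past the floor did so. This order counts gaps of any size. POLE is among the 23 with 1305 in siNT and 1306 in PBS, and RFC5 with 565 in siSET and 576 in OP449. CCNE1, cyclin E, which drives entry into S phase, was the only one of the 41 with all 3 siRNA libraries above both, against 12.1% of all genes. Its siNT level of 303 was close to 300 in OP449. Against PBS its log2 ratios in siNT, 0.15 [-0.11 to 0.41], and siCIP2A, 0.24 [-0.01 to 0.49], had intervals that include 0. By their labels, the siNT and siSET libraries differ from PBS and OP449 both in time and in naming an siRNA, and these cannot be told apart. Whether the PBS and OP449 cells were transfected is not stated. In bulk RNA, fewer cells in S phase and less RNA per cell cannot be told apart either.

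**Figure D1:**
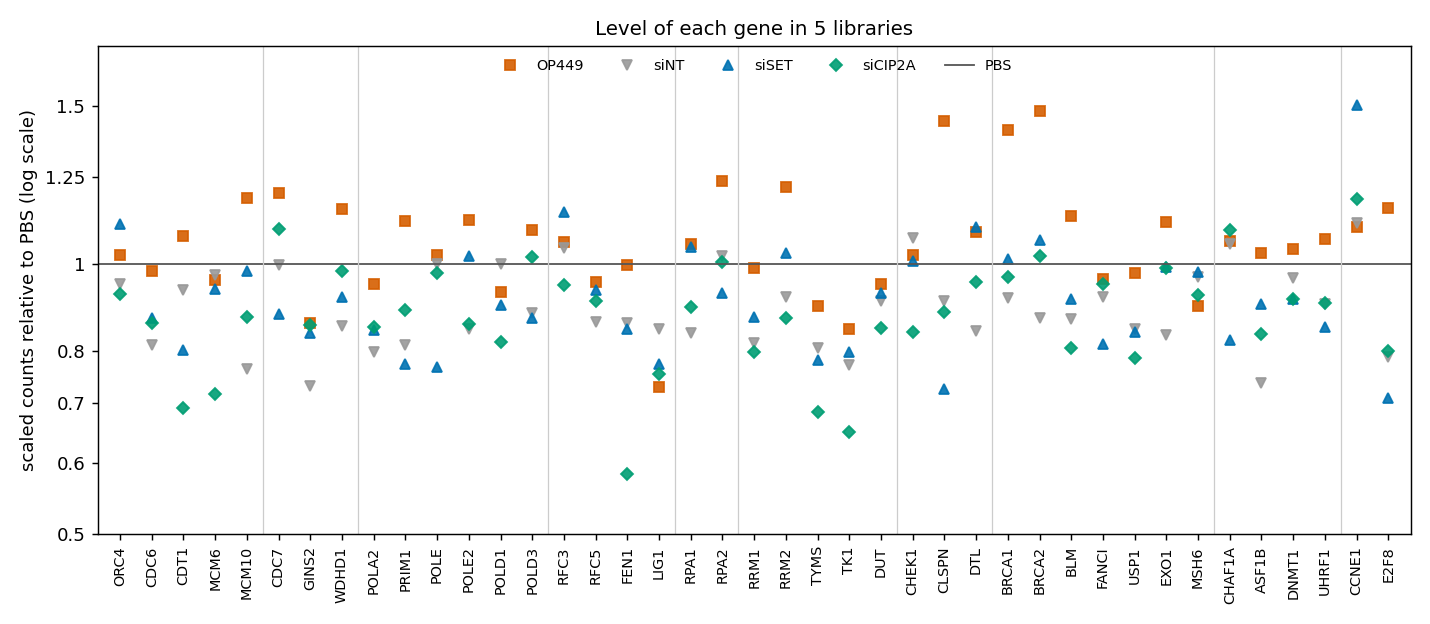
Level of each of the 41 genes in OP449, siNT, siSET and siCIP2A divided by its level in PBS (line at 1), on a log axis, with 1 library per group; grey lines part the roles, from origin licensing at the left to S-phase regulators at the right. Most siRNA symbols sit below the line, FEN1 in siCIP2A lowest, and CLSPN, BRCA1 and BRCA2 in OP449 and CCNE1 in siSET highest.

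Control siRNA against PBS compares libraries in which neither SET nor CIP2A was targeted. In siNT, 36 of the 41 genes stood below PBS, against 51.2% of all genes past the floor. Of the 36, CDC7, POLE and POLD1 were equal to PBS in effect (420 against 421, 1305 against 1306, and 1039 in both), and the number below PBS was 33 when libraries were rescaled to equal totals or by the median of ratios. Their median log2 ratio was -0.20, and that of all genes was -0.01. The counting interval lay below 0 for 20 genes and above 0 for none, against 17.7% of all genes on either side. None reached 1.5-fold in either direction, where 3.13% of all genes did. At a looser limit, at least 25% above or 20% below the control, 6 genes passed, all of them lower (GINS2, ASF1B, MCM10, TK1, E2F8 and POLA2), against 16.9% of all genes. The shift was thus broad and small.

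GINS2, a subunit of the GINS part of the replicative helicase, stood at 423 scaled counts in PBS, 363 in OP449, 309 in siNT, 354 in siSET and 361 in siCIP2A. PBS was the highest of the 5 and siNT the lowest, at a log2 ratio of -0.45 [-0.68 to -0.22]. ASF1B, a chaperone that hands histones to the new strands, stood at 1350 in PBS, 1386 in OP449, 994 in siNT, 1218 in siSET and 1126 in siCIP2A. All 3 siRNA libraries were below both others, with siNT at -0.44 [-0.57 to -0.31] against PBS. MCM10, an initiation factor that binds the loaded helicase, stood at 744 in PBS, 882 in OP449, 568 in siNT, 730 in siSET and 649 in siCIP2A, so that siNT was the lowest at -0.39 [-0.56 to -0.22].

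The nucleotide-supply genes were all below PBS in siNT, with a median of -0.29, and 4 of 5 had an interval below 0. Of all genes past the floor, 51.2% were below PBS and 17.7% had such an interval. TK1, which salvages thymidine, stood at 2758 in PBS, 2331 in OP449, 2125 in siNT, 2196 in siSET and 1789 in siCIP2A. Its siNT ratio was -0.38 [-0.47 to -0.29], and OP449 lay between PBS and the siRNA libraries. RRM1, the large subunit of ribonucleotide reductase, stood at 3585 in PBS, 3545 in OP449, 2923 in siNT, 3127 in siSET and 2859 in siCIP2A. The 3 siRNA libraries were below the other 2 here as well, with siNT at -0.29 [-0.37 to -0.22].

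All 7 fork and mismatch repair genes were below PBS in siNT too, from -0.05 for MSH6 to -0.26 for EXO1, an exonuclease of mismatch repair and end resection, but only 2 had an interval below 0. All 5 genes grouped under origin licensing, MCM10 among them though it acts on the loaded helicase, were below PBS. Again only 2 (CDC6 and MCM10) had an interval below 0. Beside both groups, 51.2% of all genes past the floor were below PBS and 17.7% had an interval below 0. Of the 6 polymerase and primase genes, POLE and POLD1 were level with PBS and the other 4 below it, POLA2 the lowest at -0.33. The 5 genes above PBS were CCNE1 at 0.15 [-0.11 to 0.41], CHEK1, the checkpoint kinase of stalled forks, at 0.10, CHAF1A, a chromatin assembly subunit, at 0.07, RFC3 at 0.06 and RPA2 at 0.03. Each of these intervals includes 0. E2F8, a repressor in the E2F family, stood at 435 in PBS, 502 in OP449, 342 in siNT, 308 in siSET and 348 in siCIP2A, with siNT at -0.34 [-0.57 to -0.12].

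**Figure D2:**
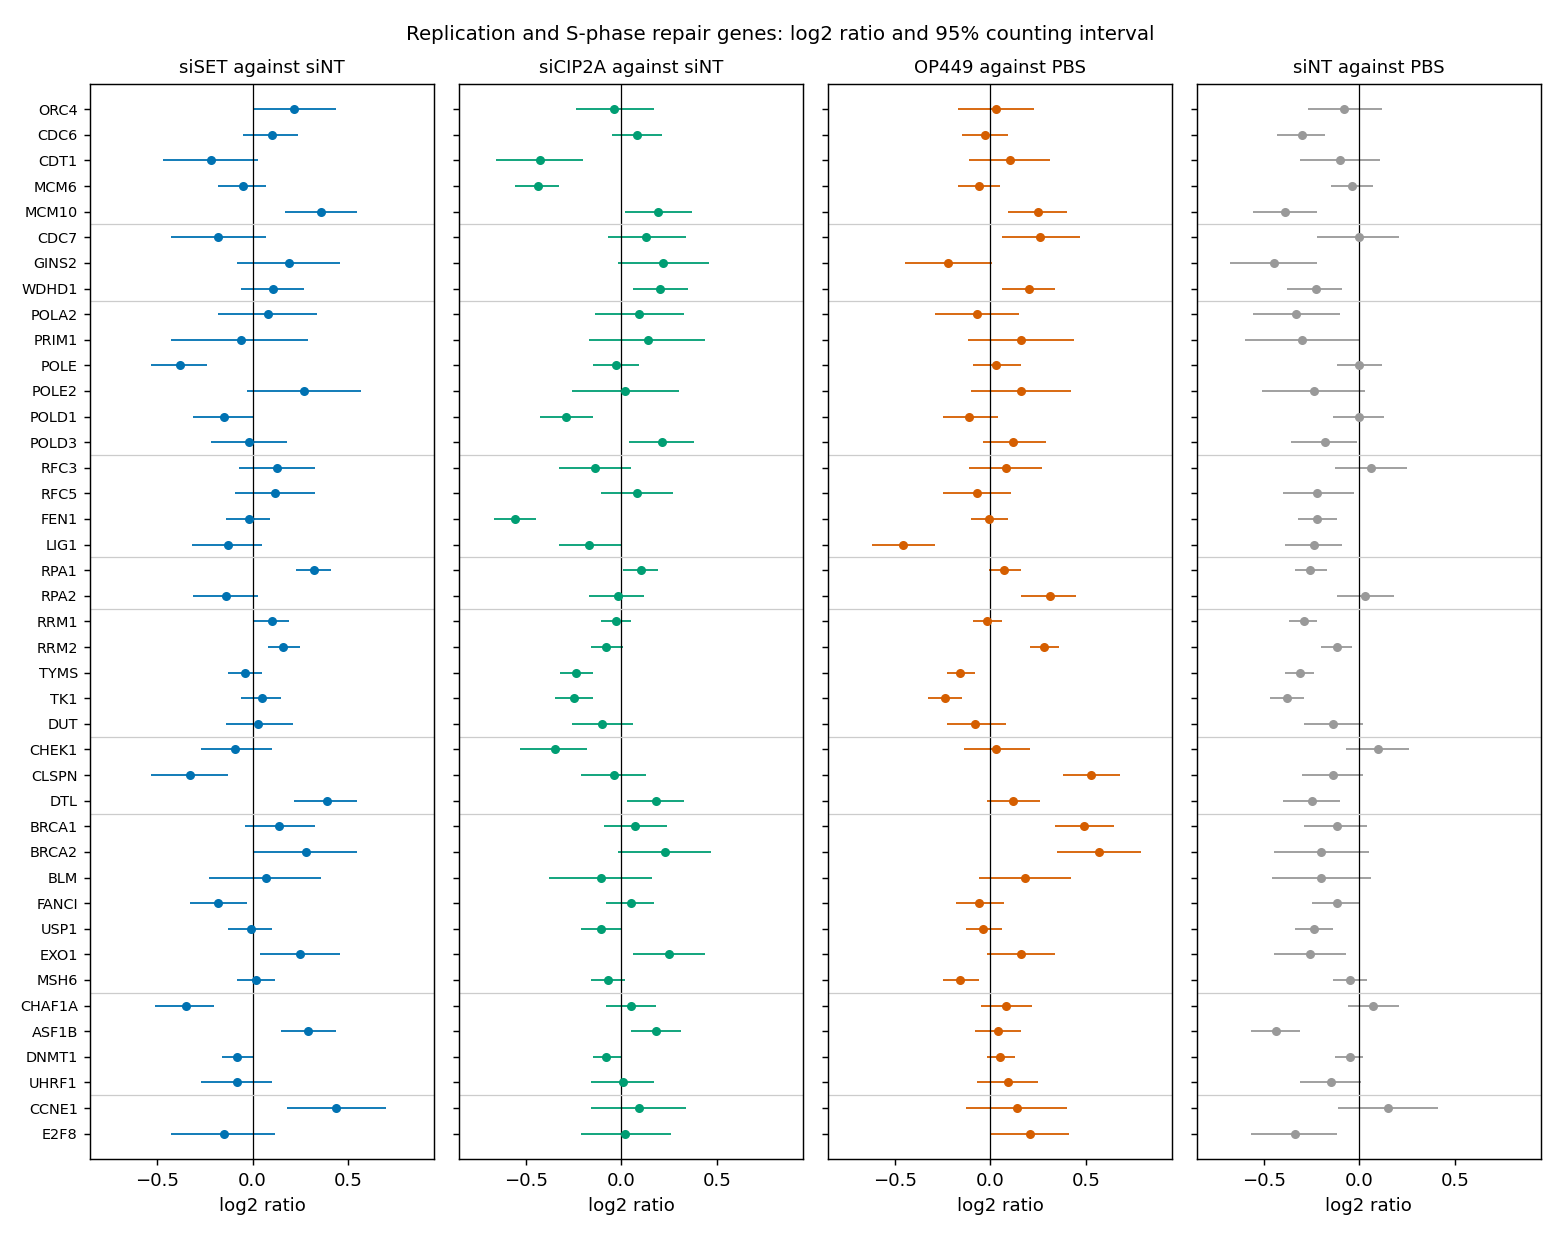
Log2 ratio of each gene (rows, grouped by role) in the 4 comparisons (panels), with 95% counting intervals as bars and 1 library per group. In siNT against PBS 36 of 41 points lie left of 0, 3 of them (CDC7, POLE and POLD1) almost on it, and in the other panels points lie on both sides.

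CIP2A siRNA asked which of these genes depart from the control siRNA. FEN1, MCM6, CDT1 and CHEK1 stood at least 20% below siNT in siCIP2A, and no gene stood 25% or more above it. These 4 of 41 compare with 22.0% of all genes past the floor that passed either limit. None of the 41 reached 1.5-fold, against 6.07%. Counts were nearly even over all 41, with 20 below siNT and 21 above, against 47.4% of all genes below, and a median of 0.01, beside 0.02 for all genes. The interval lay below 0 for 10 genes and above 0 for 7, against 20.2% and 21.3% of all genes.

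FEN1, the nuclease that trims the flaps of Okazaki fragments, stood at 2097 in PBS, 2088 in OP449, 1801 in siNT, 1772 in siSET and 1221 in siCIP2A. The siCIP2A library was the lowest, 1.48-fold below siNT, from 1106 reads against 1520, at -0.56 [-0.67 to -0.45], and 1.72-fold below PBS. On hg19 its transcript spans chromosome 11 from 61560150 to 61564707. MCM6, a subunit of the replicative helicase, stood at 1645 in PBS, 1576 in OP449, 1600 in siNT, 1541 in siSET and 1176 in siCIP2A. Its other 4 libraries lay close together, and siCIP2A stood at -0.44 [-0.56 to -0.33]. The transcript spans chromosome 2 from 136597204 to 136634011.

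CDT1, which brings the helicase to origins, stood at 450 in PBS, 483 in OP449, 421 in siNT, 361 in siSET and 311 in siCIP2A. Both targeted siRNA libraries were below siNT, siCIP2A at -0.43 [-0.66 to -0.20] and siSET at -0.22 [-0.47 to 0.03]. CHEK1 stood at 652 in PBS, 666 in OP449, 697 in siNT, 657 in siSET and 547 in siCIP2A, at -0.35 [-0.53 to -0.18]. POLD1, the catalytic subunit of polymerase delta, was at -0.29 [-0.43 to -0.15], while POLD3, an accessory subunit of the same polymerase, was at 0.21 [0.04 to 0.38]. The intervals of these 2 subunits lie on opposite sides of 0.

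All 5 nucleotide-supply genes were below siNT in siCIP2A, where 47.4% of all genes past the floor were below, but RRM1 only at -0.03. TK1 was at -0.25 [-0.35 to -0.15], TYMS at -0.24 [-0.32 to -0.15], and the other 3 had intervals that include 0. TYMS stood at 3649 in PBS, 3275 in OP449, 2937 in siNT, 2850 in siSET and 2492 in siCIP2A, the lowest of the 5 libraries. The highest ratios belonged to EXO1, GINS2 and BRCA2. EXO1 stood at 583 in PBS, 649 in OP449, 486 in siNT, 578 in siSET and 577 in siCIP2A, at 0.25 [0.06 to 0.44], but at -0.01 against PBS. GINS2 was at 0.22 [-0.02 to 0.46], but at -0.23 [-0.45 to -0.01] against PBS. BRCA2 was at 0.23 [-0.02 to 0.47], and at 0.03 [-0.20 to 0.26] against PBS. WDHD1, the fork scaffold that ties polymerase alpha to the helicase, stood at 996 in PBS, 1145 in OP449, 849 in siNT, 915 in siSET and 977 in siCIP2A, at 0.20 [0.06 to 0.35] against siNT. With PBS in place of siNT as the control, 35 of 41 genes were below it, against 47.7% of all genes, with a median of -0.18, and FEN1 at -0.78 and TK1 at -0.62 passed 1.5-fold, which 5.68% of all genes did.

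SET siRNA asked the same of SET. CCNE1, DTL and MCM10 were at least 25% higher in siSET than in siNT, and POLE, CHAF1A and CLSPN at least 20% lower. Of all genes past the floor, 24.8% passed either limit. None reached 1.5-fold, against 7.09% of all genes. In all, 22 genes were above siNT and 19 below, against 47.9% of all genes below, with a median of 0.03 beside 0.01 for all genes. The interval lay above 0 for 10 genes and below 0 for 4, against 19.7% of all genes on either side.

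CCNE1 stood at 273 in PBS, 300 in OP449, 303 in siNT, 411 in siSET and 322 in siCIP2A. The siSET library was the highest and PBS the lowest, at 0.44 [0.18 to 0.70] against siNT, from 240 reads against 256 in the deeper control, and at 0.59 against PBS. The transcript spans chromosome 19 from 30302901 to 30315218 on hg19. DTL, the substrate receptor of the ubiquitin ligase that destroys CDT1 in S phase, stood at 935 in PBS, 1015 in OP449, 787 in siNT, 1028 in siSET and 892 in siCIP2A. Here siNT was the lowest library, with siSET at 0.39 [0.22 to 0.55] against it and at 0.14 against PBS. MCM10, whose lowest library was also siNT, was at 0.36 [0.17 to 0.55] against siNT and at -0.03 against PBS.

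RPA1, the large subunit of the protein that coats single-stranded DNA, stood at 2792 in PBS, 2939 in OP449, 2336 in siNT, 2915 in siSET and 2500 in siCIP2A. Its ratio of 0.32 [0.23 to 0.41] in siSET rests on 1704 and 1971 reads. RPA2, another subunit of the same protein, was at -0.14 [-0.31 to 0.03].

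On the lower side, POLE, the catalytic subunit of the leading-strand polymerase epsilon, stood at 1306 in PBS, 1336 in OP449, 1305 in siNT, 1001 in siSET and 1275 in siCIP2A. Its other 4 libraries lay within a narrow range, and siSET stood at -0.38 [-0.53 to -0.24] against siNT and at -0.38 against PBS. POLE2, its small partner, was at 0.27 [-0.03 to 0.57]. CHAF1A, which with its partner subunits deposits histones behind the fork, stood at 1060 in PBS, 1123 in OP449, 1115 in siNT, 872 in siSET and 1156 in siCIP2A, and only siSET departed from the rest, at -0.35 [-0.51 to -0.20]. The histone chaperone ASF1B was at 0.29 [0.15 to 0.44].

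CLSPN stood at 747 in PBS, 1077 in OP449, 678 in siNT, 541 in siSET and 660 in siCIP2A. It was lowest in siSET, at -0.33 [-0.53 to -0.13] against siNT, and highest in OP449. With PBS as the control of siSET, 31 of 41 genes were below it, against 48.9% of all genes, the median was -0.15, and CCNE1 alone passed 1.5-fold, against 5.70% of all genes.

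**Figure D3:**
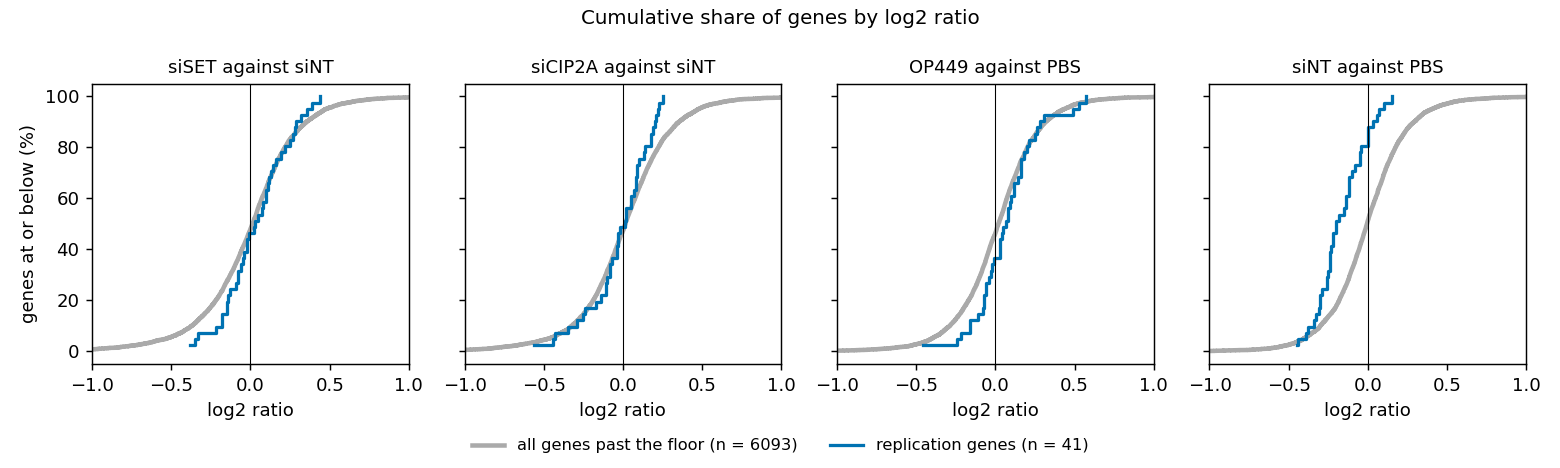
Cumulative share (%) of genes by log2 ratio for the 41 replication genes (blue) and the 6093 genes past the floor (grey) in the 4 comparisons, 1 library per group. The lines cross near 0 in siSET and siCIP2A, with medians of 0.03 and 0.01, and the blue line lies to the left in siNT against PBS, with a median of -0.20.

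OP449 against PBS asked which genes differ after 12 hours of the SET antagonist. BRCA2, CLSPN and BRCA1 were at least 25% higher and LIG1 at least 20% lower, 4 of 41 beside 18.1% of all genes past the floor. None reached 1.5-fold, against 3.73%. In all, 26 genes were above PBS and 15 below, against 46.4% of all genes below, with a median of 0.07 beside 0.02 for all genes. The interval lay above 0 for 8 genes and below 0 for 4, against 19.3% and 17.0% of all genes.

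BRCA2 stood at 340 in PBS, 504 in OP449, 296 in siNT, 361 in siSET and 347 in siCIP2A. OP449 was the highest library, 1.48-fold above PBS, from 391 reads against 300, at 0.57 [0.35 to 0.79]. CLSPN was 1.44-fold above PBS, at 0.53 [0.38 to 0.68] from 836 and 659 reads. BRCA1, which acts with BRCA2 in recombination at broken forks, stood at 720 in PBS, 1014 in OP449, 660 in siNT, 729 in siSET and 695 in siCIP2A. Its other 4 libraries were close together, and OP449 stood at 0.49 [0.34 to 0.65]. On hg19 the BRCA1 transcript spans chromosome 17 from 41196313 to 41277500, that of BRCA2 chromosome 13 from 32889617 to 32973809, and that of CLSPN chromosome 1 from 36201820 to 36235551. Smaller ratios with an interval above 0 belonged to RPA2 (0.31), RRM2 (0.28), the kinase gene CDC7 (0.26), MCM10 (0.25) and WDHD1 (0.20).

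LIG1, the ligase that seals Okazaki fragments, stood at 879 in PBS, 640 in OP449, 744 in siNT, 679 in siSET and 663 in siCIP2A. PBS was the highest library and OP449 the lowest, at -0.46 [-0.62 to -0.29], from 497 reads against 775. The transcript spans chromosome 19 from 48618703 to 48673560. FEN1, which acts just before LIG1 on the same fragments, was at -0.01 [-0.10 to 0.09]. TK1 was at -0.24 [-0.33 to -0.15] and TYMS at -0.16 [-0.23 to -0.08], whereas RRM2, the regulated small subunit of ribonucleotide reductase, stood at 3055 in PBS, 3717 in OP449, 2803 in siNT, 3141 in siSET and 2660 in siCIP2A, at 0.28 [0.21 to 0.36]. Nucleotide-supply genes thus lay on both sides of PBS. MSH6 stood at 2446 in PBS, 2197 in OP449, 2363 in siNT, 2397 in siSET and 2256 in siCIP2A, and was below PBS at -0.16 [-0.25 to -0.06]. GINS2 was at -0.22 [-0.45 to 0.01]. DNMT1, the maintenance DNA methyltransferase, stood at 3549 in PBS, 3685 in OP449, 3420 in siNT, 3242 in siSET and 3240 in siCIP2A, one of the smallest spans of the 41 genes, and was at 0.05 [-0.02 to 0.13] in OP449.

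The comparisons of siCIP2A with siNT and of OP449 with PBS share no library. Across the 41 genes their log2 ratios had a Pearson r of 0.35 and a Spearman rho of 0.41, beside 0.15 and 0.11 across all genes past the floor. Of the 41 genes, 16 (39%) were above their control in both, against 30% of all genes past the floor, and 10 (24.4%) below in both, against 23.8%. For siSET and OP449 the same values were 0.10 and 0.13, beside -0.07 and -0.01. These describe genes of 5 libraries, and genes are not independent replicates.

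**Figure D4:**
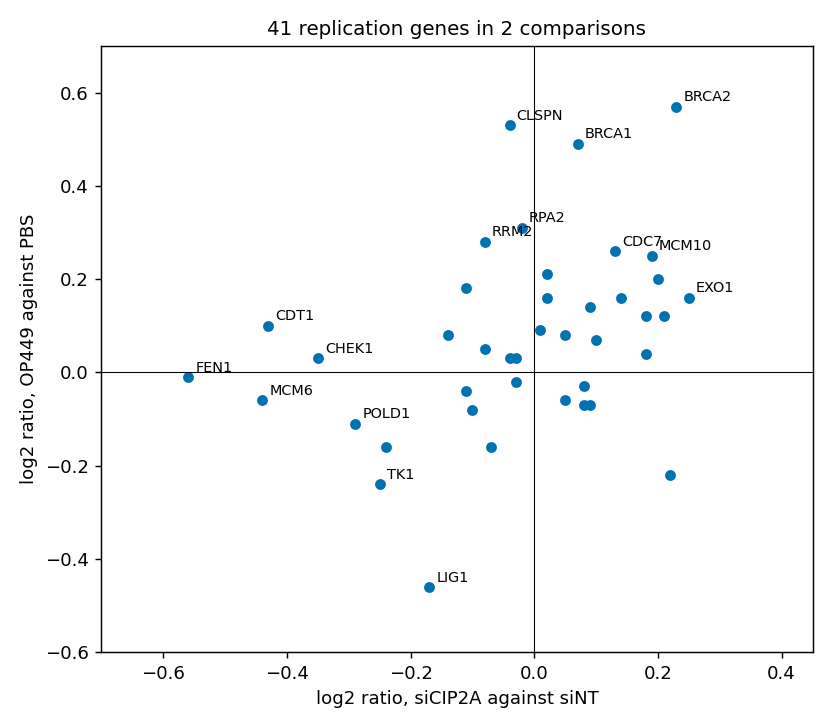
Log2 ratio of each of the 41 genes in siCIP2A against siNT (x axis) and in OP449 against PBS (y axis), comparisons with no library in common. FEN1, MCM6 and CDT1 lie far left near 0 on the y axis, and CLSPN and BRCA1 lie high near 0 on the x axis.

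Other genes of these pathways were listed by function, with earlier results of these data known. Of 55 further replication genes, 20 were measured past the floor. In siNT against PBS, 11 of the 20 were below PBS, 5 with an interval below 0 and 1 above, with a median of -0.06. Of all genes past the floor, 51.2% were below PBS and 17.7% had an interval on either side. The lowest of the 20 was RNASEH2A, a subunit of the enzyme that removes ribonucleotides from DNA, at -0.58. The highest was TICRR, an origin firing factor, at 0.30. In siSET 1 of 20 had an interval below 0 and 2 above, in siCIP2A 1 and 3, and in OP449 5 and 4. The shares of all genes below and above 0 were 19.7% and 19.7% in siSET, 20.2% and 21.3% in siCIP2A, and 17.0% and 19.3% in OP449. Among the 20, the nuclease gene DNA2 was the highest in OP449 at 0.47 [0.25 to 0.69]. The polymerase delta subunit POLD4 was the lowest at -0.32 [-0.53 to -0.11].

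Of 45 further fork repair genes, 27 were past the floor. In OP449, 20 of them were above PBS and 7 below, with a median of 0.17, where 46.4% of all genes were below. The interval lay above 0 for 11 and below 0 for 4, against 19.3% and 17.0% of all genes. RAD52, a recombination mediator, was the highest of the 27 at 0.71 [0.20 to 1.26]. In siNT, 7 had an interval below 0 and 1 above, in siSET 3 and 9, and in siCIP2A 1 and 6. The shares of all genes were 17.7% on either side in siNT, 19.7% on either side in siSET, and 20.2% and 21.3% in siCIP2A. The highest of the 27 in siSET was WEE1, the kinase that holds back mitosis, at 0.74 [0.55 to 0.94]. Of 33 E2F, RB and G1/S regulators, 17 were past the floor. Their median was -0.07 in siNT, where E2F2 was the lowest at -0.56, 0.21 in siSET, 0.10 in siCIP2A and 0.09 in OP449.

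Mitosis and G2/M genes, which are transcribed later in the cycle, showed the difference between siRNA and 12-hour libraries more widely. Of 60 listed, 39 were past the floor, and for all 39 the 3 siRNA libraries lay below both PBS and OP449. The other lists showed this order less often, beside 13.8% of all genes past the floor. It held for 6 of the 20 further replication genes and 5 of the 27 further fork repair genes. Of the 17 E2F, RB and G1/S regulators, 3 had it. In siNT against PBS all 39 had an interval below 0, against 17.7% of all genes, with a median of -0.38. Of the 39, 28 were at least 20% lower, where 16.9% of all genes passed the limit either way. In siCIP2A against siNT the median was -0.10. There 16 had an interval below 0 and none above, against 20.2% and 21.3% of all genes. In siSET 7 lay below and 14 above, against 19.7% of all genes on either side. In OP449 8 lay below and 9 above, against 17.0% and 19.3%. The mitosis genes were thus lower in siNT together with most of the 41 replication genes. The further lists lay nearer the median of all genes, -0.01. Their medians were -0.06 for replication genes, -0.12 for fork repair genes and -0.07 for E2F, RB and G1/S regulators. The part of a shift in cell cycle phases in these differences was not tested.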

How the data were processed

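RNA of MDA-MB-231 cells was reverse transcribed with oligo-dT and sequenced on an Illumina GAII, per the labels' protocols. The submitters' processing notes name hg19, CASAVA and Bowtie 1.0.0 without roles. How reads were counted and scaled, and whether strand was used, is not stated in these sources. The authors' deposited signal, called scaled counts, covers 16383 RefSeq transcript rows from chromosomes 1, 10 to 19 and part of 2, and 15739 rows had an accession with a current symbol. In each library 100% of values were whole multiples of 1 read within 0.001 reads, a read being worth 1.10 to 1.71 scaled counts.

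Genes were named through accessions, and 1 transcript per gene was kept. Ratios used a pseudocount of 1. A fold of at least 1.5, and levels at least 25% above or 20% below the control, were counted, as were counting intervals that exclude 0. Ratios and intervals were tested on simulated data. Python 3.11.15, pandas 2.3.3 and SciPy 1.17.1 were used. Members and lists were chosen with earlier results of these data known. Genes given with all 5 values are the 3 highest and 3 lowest per comparison and the most abundant of each role, plus TYMS and RRM2, which were chosen after their values were seen.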

Additional observations from a re-analysis of the deposited data

How the results depend on the processing

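Medians and counts over the 41 genes were recomputed with floors of 20 and 200 and with none, a pseudocount of 10, 3 rescalings, all transcript rows, other fold thresholds, means, PBS as control, and, added after seeing the data, without the 3 genes that overlap another gene. Of 198 such values, 181 stayed close to those reported, but many of them could not change. All 41 genes had a mean of at least 223 scaled counts, so no floor removed a gene. The pseudocount does not enter the counting intervals, and a higher fold threshold cannot raise a count of 0. The tally is therefore no measure of how stable the results are. With PBS as control, siSET had a median of -0.15, 31 genes below 0, 1 past 1.5-fold, and 19 intervals below and 1 above 0, and siCIP2A had -0.18, 35, 2, 23 and 0. MCM10 in siSET then stood at -0.03 [-0.20 to 0.15] and EXO1 in siCIP2A at -0.01 [-0.19 to 0.17]. Both were thus level with PBS, and neither remained above its control. GINS2 in siCIP2A went from 0.22, with an interval that includes 0, to -0.23 [-0.45 to -0.01]. At the limit of 25% above or 20% below the control the number past it was 6 in siSET, 4 in siCIP2A, 4 in OP449 and 6 in siNT, in place of 0. Rescaled to equal totals, which multiplies OP449 by 1.011 and PBS by 0.993, OP449 had 1 gene past 1.5-fold and 13 intervals above 0, in place of 8. Without overlapping genes it had 2 intervals below 0, in place of 4, since TYMS and MSH6 drop out. No paired analysis was possible because each group had 1 library. The shallow siSET library limits the low genes most: POLE2, at 0.27 from 171 reads, could not be told from equality at this depth.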
